A study of Mus musculus with 4 samples.

Results

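Genes that mark eosinophils, basophils and mast cells were followed in leukemic mouse bone marrow. The 10 genes were Prg2, Prg3, Epx, Siglecf, Il5ra, Ccr3, Cpa3, Mcpt8, Prss34 and Hdc, taken by symbol from the annotation of the array, and all 10 were measured among 19938 genes, each by 1 probe set. The groups were 2 arrays of leukemic whole marrow labelled Hes1 null and 2 labelled wild type, all from the C57BL/6 strain, which the series' design text writes as MLL-AF9/Hes1-/- and MLL-AF9/Hes1+/+. MLL-AF9, which all arrays share, is a leukemia-driving fusion gene whose way of delivery the labels do not give, and Hes1 is a repressor of transcription downstream of Notch. The comparison asks what the leukemic marrow expresses without Hes1. Whole marrow mixes leukemic cells with whatever normal cells the host still has, and the labels give neither age nor the number of animals behind an array. Levels are log2 intensities. Each difference is the Hes1-null mean less the wild-type mean, so a negative one is lower in Hes1-null marrow, and ± gives limma's SE (n = 2 arrays per genotype).

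Eosinophils, basophils and mast cells are granule-bearing myeloid cells. They form under the control of GATA factors and C/EBP factors and serve in allergy and in defence against parasites. Eosinophils store basic proteins and a peroxidase in their granules and depend on interleukin-5. Basophils and mast cells carry the high-affinity IgE receptor, make histamine and store proteases. Several of the genes are not exclusive to these cells: Cpa3 is also transcribed in early hematopoietic progenitors, Hdc in immature myeloid cells and Siglecf in alveolar macrophages.

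Promoter sequences are shown for the genes with the most distinct array patterns described below, Siglecf, Epx and Cpa3, which were lower on both Hes1-null arrays, and Mcpt8, which was not. They are RefSeq sequences of assembly GRCm38.p6, from 250 bases before to 50 bases after the table's start site, read 5′ to 3′ on the strand of the gene. The windows are chr7:43351091-43351390 (plus strand), chr11:87875487-87875786 (minus strand), chr3:20242132-20242431 (minus strand) and chr14:56085148-56085447 (minus strand). Capitals mark the 6-letter GATA motif, spelled AGATAA or, with another last letter, AGATAG, and likewise TGATAA or, with another last letter, TGATAG, searched on both strands.
Siglecf: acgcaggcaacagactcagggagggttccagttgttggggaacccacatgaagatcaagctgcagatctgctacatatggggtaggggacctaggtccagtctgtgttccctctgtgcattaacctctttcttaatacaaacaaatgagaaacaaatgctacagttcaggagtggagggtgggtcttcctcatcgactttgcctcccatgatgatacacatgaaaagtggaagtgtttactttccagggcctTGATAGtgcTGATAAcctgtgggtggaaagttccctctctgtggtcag
Epx: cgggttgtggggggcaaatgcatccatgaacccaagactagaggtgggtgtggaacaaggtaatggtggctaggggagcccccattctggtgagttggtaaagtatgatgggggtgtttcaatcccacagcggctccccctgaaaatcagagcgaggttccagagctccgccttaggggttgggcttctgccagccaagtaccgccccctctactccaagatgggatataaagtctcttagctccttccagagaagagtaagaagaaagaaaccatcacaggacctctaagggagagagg
Cpa3: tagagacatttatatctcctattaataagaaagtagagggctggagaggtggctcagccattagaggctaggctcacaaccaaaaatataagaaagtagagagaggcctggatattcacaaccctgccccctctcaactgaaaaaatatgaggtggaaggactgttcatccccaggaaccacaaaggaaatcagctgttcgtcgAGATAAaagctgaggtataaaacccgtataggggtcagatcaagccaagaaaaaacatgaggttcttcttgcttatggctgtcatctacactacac
Mcpt8: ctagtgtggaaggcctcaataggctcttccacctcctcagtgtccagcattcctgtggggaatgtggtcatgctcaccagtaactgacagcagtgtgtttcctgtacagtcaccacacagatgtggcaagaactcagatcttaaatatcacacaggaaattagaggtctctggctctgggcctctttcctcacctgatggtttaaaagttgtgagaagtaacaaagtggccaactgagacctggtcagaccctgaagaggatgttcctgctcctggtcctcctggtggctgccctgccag

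The Siglecf window held TGATAG with its first base at position 3, counted from the start site, and then TGATAA at position 12. The Cpa3 window held AGATAA, beginning 46 bases before the start site. The windows of Epx and Mcpt8 held none of the 4 spellings. The start site used for Mcpt8 lies 302 bases inside the span of the gene in RefSeq, so that whole window is inside the annotated gene. A promoter entry was found for 9 of the 10 genes, all but Prg2, and 7 of the 9 windows held at least 1 match, those of Prg3, Siglecf, Il5ra, Ccr3, Cpa3, Prss34 and Hdc. Among these, Ccr3 and Hdc have start sites 4146 and 5347 bases inside the gene span, so both windows also lie inside the gene. Of all 32851 mouse promoter windows of 300 bases, 29.8% held a match. Windows with a match belonged both to genes with a wide range over the 4 arrays (Siglecf, Cpa3) and to genes with a narrow one (Il5ra, Prss34).

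None of the 10 genes passed the test between genotypes. In limma's moderated test over all genes, 0 of 10 had an adjusted p under 0.05, against 0.145% of all genes (29 of 19938, 0.0752% lower and 0.0702% higher in Hes1-null marrow). At an unadjusted p under 0.05 there were 4 of 10, against 8.29% of all genes, and all 4 were lower in Hes1-null marrow. These were Siglecf, Prg2, Epx and Cpa3, and they were also the genes whose Hes1-null arrays both lay below both wild-type arrays, a pattern that 20.6% of all genes showed. Il5ra, dim throughout, was the 1 gene with both Hes1-null arrays above both wild-type arrays (17.4% of all genes). With a difference of at least 2-fold added, the same 4 of 10 stood against 1.22% of all genes. Of the 10 differences 7 were negative (53.5% of all genes), and their median was -0.84, against -0.02 over all genes. The genes were chosen with earlier results of these data known, so the counts describe them and test nothing about the group. In whole marrow, fewer cells of a type and less RNA per cell cannot be told apart.

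**Figure D1:**
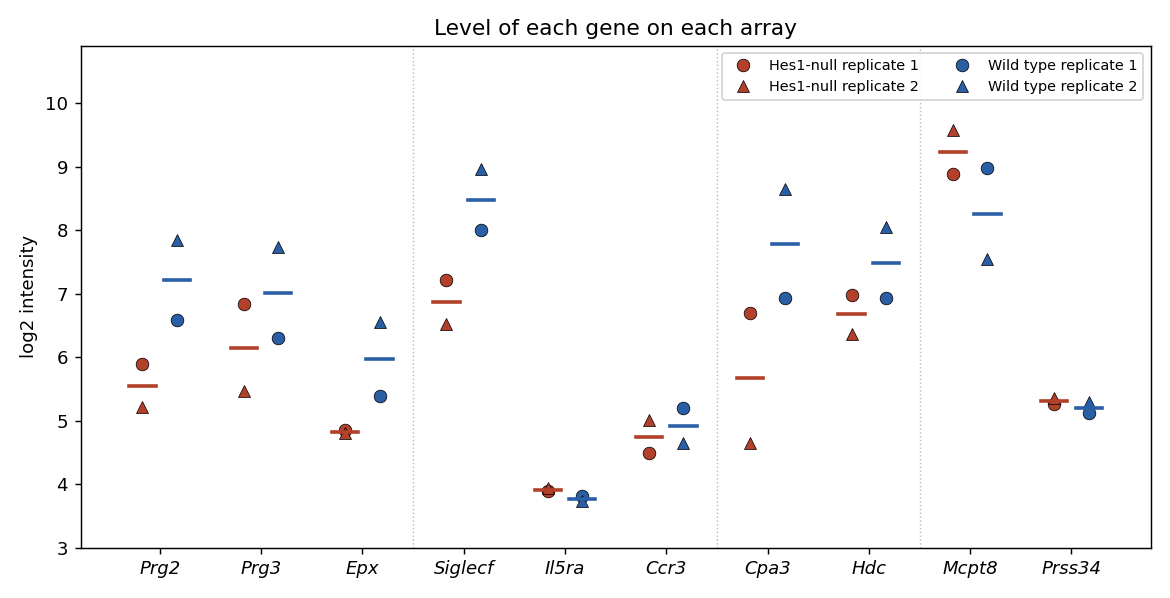
Log2 intensity of each gene on each of the 4 arrays, Hes1-null in red left of wild type in blue, circles for replicate 1, triangles for replicate 2, bars for the mean of 2 arrays. Dotted lines divide granule proteins, receptors, the genes shared with other cells and basophil proteases. Prg2, Epx, Siglecf and Cpa3 lie lower on both Hes1-null arrays, and wild-type replicate 2 stands apart from wild-type replicate 1 for most of the genes that vary.

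The labels of the arrays could not be checked on Hes1 itself. Hes1 lay at 5.43 and 5.84 on the Hes1-null arrays, against 5.59 and 5.79 on the wild-type arrays (difference -0.06 ± 0.18, adjusted p = 0.968 by limma), and the labels do not say whether its probe set lies in the deleted part. The neutrophil protease gene Elane, a marker of myeloid marrow, was bright at 11.70 and 11.17 on the Hes1-null arrays and at 13.01 and 13.08 on the wild-type arrays. Over all genes the 2 Hes1-null arrays correlated at r = 0.982 and the 2 wild-type arrays at r = 0.995. As a guide to dim probe sets, 4 Y-linked genes lay between 2.56 and 4.09 over the 4 arrays, and 21 genes of liver, muscle, lens, brain, pancreas and other organs lay between 3.65 and 6.68. Probe sets differ in brightness, so these ranges do not set a detection limit for any one gene.

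The granule protein genes of eosinophils were measured at middling to low intensity. Prg2, which encodes the major basic protein of the eosinophil granule, lay at 5.89 and 5.21 on the Hes1-null arrays, against 6.59 and 7.85 on the wild-type arrays. Both Hes1-null arrays were below both wild-type arrays, and wild-type replicate 2 was the highest by a wide margin. The difference was -1.67 ± 0.45, a level 3.18-fold lower (unadjusted p = 0.0126, adjusted p = 0.399, limma). Dropping wild-type replicate 2 gave -1.04, and dropping wild-type replicate 1 gave -2.30.

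Epx encodes eosinophil peroxidase, the granule enzyme that makes hypohalous acids. It lay at 4.85 and 4.802 on the Hes1-null arrays, against 5.39 and 6.55 on the wild-type arrays. The Hes1-null arrays nearly coincided, and the gap to wild type came in large part from wild-type replicate 2. The difference of -1.15 ± 0.37 (2.21-fold lower, adjusted p = 0.505 by limma) was -0.56 without that array. No array exceeded the highest level of the genes of other organs.

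Prg3, the neighbour of Prg2 on chromosome 2, encodes a second form of the major basic protein. It lay at 6.83 and 5.47 on the Hes1-null arrays, against 6.29 and 7.74 on the wild-type arrays. The genotypes overlapped, since Hes1-null replicate 1 was above wild-type replicate 1. Its difference of -0.86 ± 0.62 (adjusted p = 0.795 by limma) shrank to -0.14 when wild-type replicate 2 was left out, and to -0.18 when Hes1-null replicate 2 was. Both neighbours were highest on wild-type replicate 2 and lowest on Hes1-null replicate 2, but only Prg2 separated the genotypes, and the difference between the 2 genes was not tested.

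The surface receptors did not share one pattern. Siglecf, a sialic acid-binding inhibitory receptor of mouse eosinophils, lay at 7.22 and 6.52 on the Hes1-null arrays, against 7.995 and 8.96 on the wild-type arrays. Every Hes1-null value was below every wild-type value, with steps between arrays of similar size. The difference was -1.61 ± 0.39 (3.05-fold lower), and its unadjusted p of 0.00793 was the smallest of the 10 genes, with an adjusted p of 0.325 by limma. Siglecg, the next protein-coding gene on chromosome 7 and a receptor of B cells, differed by -1.001 ± 0.27 (adjusted p = 0.404 by limma).

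Il5ra, the interleukin-5 binding chain of the receptor that drives eosinophil growth, lay at 3.89 and 3.94 on the Hes1-null arrays, against 3.81 and 3.73 on the wild-type arrays. All 4 values were at or below the highest Y-linked level, so no fold is given. Ccr3, the eotaxin receptor gene, lay at 4.49 and 5.004 on the Hes1-null arrays, against 5.19 and 4.65 on the wild-type arrays. Its genotypes overlapped fully (difference -0.17 ± 0.26, adjusted p = 0.917 by limma), and the 95% interval of -0.82 to 0.47 leaves room for a modest difference either way. The probe sets of these 2 receptors were dim on all arrays, whereas Siglecf and the granule genes varied.

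Cpa3, which encodes the carboxypeptidase A of mast cell granules, varied more than any of the other 9 genes. It lay at 6.69 and 4.65 on the Hes1-null arrays, against 6.93 and 8.65 on the wild-type arrays. The genotypes did not overlap, but Hes1-null replicate 1 came within a small step of wild-type replicate 1. The difference of -2.11 ± 0.82 (4.33-fold lower) did not pass (unadjusted p = 0.0468, adjusted p = 0.595, limma). Leaving out 1 array in turn gave -1.09 when Hes1-null replicate 2 was dropped, -1.25 for wild-type replicate 2, -2.98 for wild-type replicate 1 and -3.14 for Hes1-null replicate 1. The gap between the 2 Hes1-null arrays, 2.04, was reached or passed by 0.176% of all genes, and the gap between the 2 wild-type arrays, 1.73, by 0.0903%.

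Hdc encodes histidine decarboxylase, the enzyme that makes histamine. It lay at 6.98 and 6.37 on the Hes1-null arrays, against 6.93 and 8.05 on the wild-type arrays. Wild-type replicate 2 was the highest array, and the genotypes overlapped, since Hes1-null replicate 1 lay just above wild-type replicate 1. The difference of -0.82 ± 0.42 (adjusted p = 0.698 by limma) was -0.26 without wild-type replicate 2.

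Mcpt8, a serine protease gene used as a basophil marker in mice, went the other way. It lay at 8.88 and 9.57 on the Hes1-null arrays, against 8.97 and 7.55 on the wild-type arrays. The genotypes overlapped, with wild-type replicate 1 just above Hes1-null replicate 1 and wild-type replicate 2 alone at the bottom. The difference was 0.96 ± 0.51 (1.95-fold higher, 95% interval -0.30 to 2.23, adjusted p = 0.706 by limma), and 0.25 without wild-type replicate 2. It was the one gene of the 10 with all 4 arrays above the range of the genes of other organs. Prss34, the second basophil protease gene, lay at 5.27 and 5.36 on the Hes1-null arrays, against 5.12 and 5.29 on the wild-type arrays. It did not follow Mcpt8 and showed hardly any spread (difference 0.11 ± 0.13, 95% interval -0.22 to 0.44). Its 4 values all lay within the range of the genes of other organs.

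**Figure D2:**
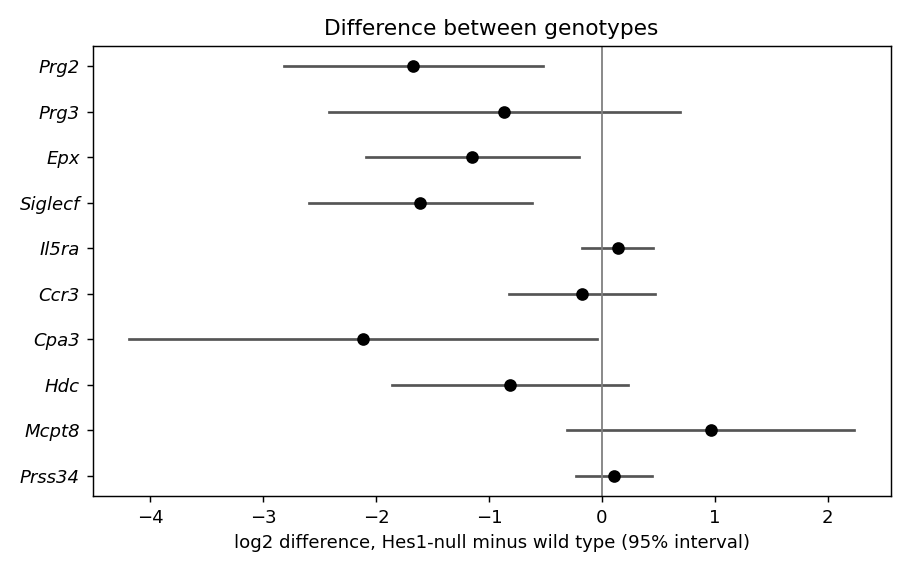
Difference of each gene on the log2 scale, Hes1-null minus wild type, with its 95% interval from limma over 4 arrays. The intervals of Prg2, Epx, Siglecf and Cpa3 lie below 0 before adjustment for all genes tested, those of the other 6 genes include 0, and Cpa3 has the widest interval, from -4.19 to -0.04.

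Arrays of 1 genotype also differed from each other for the genes that varied. Of the 10 genes 7 spanned more than 1 log2 unit over the 4 arrays, against 7.71% of all genes. Of these, 6 genes, Prg2, Prg3, Epx, Siglecf, Cpa3 and Hdc, were highest on wild-type replicate 2 and lowest on Hes1-null replicate 2, which held for 8.38% of all genes. Prg2, Epx, Siglecf and Cpa3 shared the full order of wild-type replicate 2, wild-type replicate 1, Hes1-null replicate 1 and Hes1-null replicate 2 (5.56% of all genes). Prg3 and Hdc shared an order with the middle pair exchanged (2.82%), and Mcpt8 had exactly the reverse of that order (4.45%). Mcpt8 and the dim Il5ra were lowest on wild-type replicate 2 and highest on Hes1-null replicate 2 (9.67% of all genes).

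The gap between the 2 wild-type arrays was wide for the same genes. It was 1.26 for Prg2, 1.44 for Prg3 and 1.17 for Epx, gaps that 0.286%, 0.196% and 0.356% of all genes reached. It was 0.96 for Siglecf, 1.12 for Hdc and 1.42 in the opposite direction for Mcpt8. Between the 2 Hes1-null arrays Prg2, Siglecf, Hdc and Mcpt8 differed by 0.62 to 0.69, which 9.36% to 12.5% of all genes reached. Leaving out wild-type replicate 2 brought the median difference of the 10 genes to -0.35, and leaving out wild-type replicate 1 brought it to -1.48, with 0 genes called either way. The signs of 9 of the 10 differences held whichever array was left out, all but that of Ccr3.

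**Figure D3:**
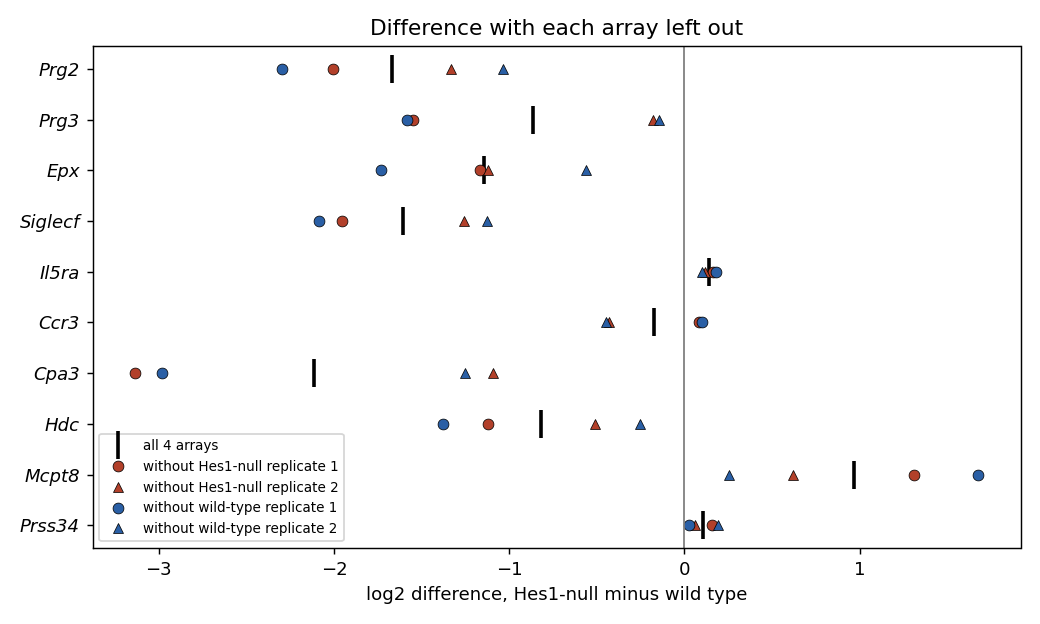
Log2 difference of each gene, Hes1-null minus wild type, over all 4 arrays (black bar) and with each array left out in turn (red symbols for Hes1-null arrays, blue for wild-type arrays, circles for replicate 1, triangles for replicate 2). Prg2, Prg3, Epx, Siglecf and Hdc move closest to 0 without wild-type replicate 2, and Cpa3 spans -3.14 to -1.09.

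The profile over the 4 arrays most like that of Cpa3, the gene with the largest range, was that of Clec4b2, a C-type lectin receptor gene of myeloid cells. Likeness was the Euclidean distance between log2 levels centred on each gene's mean, and it was 0.508 for Clec4b2, 0.527 for the cytotoxic granule gene Nkg7 and 0.615 for the proenkephalin gene Penk. Prg2, the nearest of the other 9, came after 7 such genes at a distance of 1.11. Clec4b2 lay at 6.58 and 4.72 on the Hes1-null arrays, against 7.44 and 9.07 on the wild-type arrays, and its difference was not called either (adjusted p = 0.447 by limma). With 4 arrays such a ranking is a description only.

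Of 17 further eosinophil genes 13 were measured, and 1 was called. Rnase2a, also named Ear11, of the eosinophil-associated ribonuclease family, lay at 4.78 and 4.87 on the Hes1-null arrays, against 6.77 and 6.52 on the wild-type arrays. The arrays agreed closely within each genotype, and Rnase2a fell by 1.82 ± 0.15 on the log2 scale (3.52-fold lower, adjusted p = 0.0387 by limma). Only wild-type replicate 1 exceeded the highest level of the genes of other organs. As arrays were left out the difference stayed between -1.94 and -1.69. The call was lost in most of those fits, each of which leaves 1 genotype without a replicate. Genes of this ribonuclease family are close copies of each other, so the probe set may also read its relatives. Ear6, another member, differed by -0.33 ± 0.13 (adjusted p = 0.595), and Ear1, Ear2 and Ear10 were not analysed here.

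The other genes of that list with the smallest p were ones that macrophages or immature blood cells use as well. Adgre1, the F4/80 antigen of macrophages and eosinophils, differed by -1.08 ± 0.26 (adjusted p = 0.329 by limma). Cd24a, a surface antigen of immature blood cells, differed by -1.52 ± 0.45 (adjusted p = 0.451). Leaving out Hes1-null replicate 1 brought Cd24a to -0.82, and leaving out Hes1-null replicate 2 brought it to -2.22. The list's median difference was -0.23, against -0.02 over all genes, with 4 of 13 lower and 0 higher at an unadjusted p under 0.05 (background 4.78% and 3.51%).

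Of 29 further basophil and mast cell genes 28 were measured, and 0 were called by limma. At an unadjusted p under 0.05 there were 2, both lower (8.29% of all genes, 4.78% lower), which is near the share of all genes, and the median difference was -0.01. Kit, the stem cell factor receptor of mast cells and of early progenitors, lay at 8.29 and 6.39 on the Hes1-null arrays, against 9.02 and 8.87 on the wild-type arrays. Hes1-null replicate 2 was the low array (difference -1.60 ± 0.60, adjusted p = 0.578). Leaving out Hes1-null replicate 1 brought Kit to -2.55, and leaving out Hes1-null replicate 2 brought it to -0.65. The protease gene Gzmb differed by -0.44 ± 0.17 and the receptor gene Cd200r1 by -0.59 ± 0.37, neither of them called. The basophil receptor gene Cd200r3 was below the highest Y-linked level on all arrays, so no difference is given.

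Several narrow markers of mast cells and basophils were dim, though the basophil marker Mcpt8, at 7.55 to 9.57 over the arrays, was not. A set of 12 was picked outside the naming rule after their values were seen, so their dimness is a description only: Fcer1a and Ms4a2 of the IgE receptor, Cd200r3, the chymase and tryptase genes Mcpt1, Mcpt2, Mcpt4, Cma1, Tpsb2 and Tpsab1, the receptor genes Mrgprb1 and Mrgprb2, and Rgs13. They ranged from 2.44 to 5.53 on the Hes1-null arrays and from 2.43 to 5.59 on the wild-type arrays, within or below the levels of the genes of other organs. Other genes of the list that many blood cells share were bright, such as Fcer1g, the common signalling chain of Fc receptors, at 12.25 and 12.26 on the Hes1-null arrays and at 12.36 and 12.35 on the wild-type arrays.

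Mcpt8 lies in a run of protease genes on chromosome 14, next to Mcpt4 on one side and Ctsg on the other. Ctsg, the cathepsin G gene of neutrophil granules, lay at 12.37 and 12.38 on the Hes1-null arrays, against 12.33 and 11.87 on the wild-type arrays (difference 0.28 ± 0.16, adjusted p = 0.741 by limma). Wild-type replicate 2 was the lowest array for both Mcpt8 and Ctsg. Mcpt4 is among the dim genes above. Epx has the peroxidase genes Mpo and Lpo close by on chromosome 11. Mpo, the myeloperoxidase of neutrophils, differed by -1.83 ± 0.50 (adjusted p = 0.399) and Lpo by -0.14 ± 0.15.

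All 22 genes of a list of transcription factors and other regulators drawn up for these lineages were measured. Of these, 0 were called by limma, and the median difference was 0.01. The list is broad, and not all of its genes are particular to these cells. Tcf4, encoding the E protein E2-2, had the smallest p (1.82 ± 0.18, adjusted p = 0.0591). It was called at adjusted p values from 0.0273 to 0.0486 after quantile normalization, median centring, a floor on dim levels or the replicate block. Its difference ran from 1.62 to 2.02 as arrays were left out. Irf8, a factor that favours monocytes, differed by -0.84 ± 0.12, Runx1 by -0.92 ± 0.15 and the pseudokinase gene Trib1 by 1.65 ± 0.43. Leaving out Hes1-null replicate 1 brought Irf8 to -0.95, Runx1 to -1.05 and Trib1 to 2.27. Trib1 was at 1.04 when Hes1-null replicate 2 was dropped. Outside the naming rule, the lineage-defining factor Gata1 lay at 5.38 and 5.51 on the Hes1-null arrays, against 5.75 and 5.71 on the wild-type arrays (-0.29 ± 0.13, adjusted p = 0.651), and Gata2 differed by 0.12 ± 0.33. At an unadjusted p under 0.05, 3 of the 22 were higher and 2 lower, against 3.51% and 4.78% of all genes.

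Cytokines, receptors and chemokines that act on these cells were measured for 21 of 22 listed, with 0 called by limma and a median of -0.09. Just 1 was lower at an unadjusted p under 0.05, near the share of 4.78% over all genes. That one was Ccl24, an eotaxin gene (-0.59 ± 0.16, adjusted p = 0.379). The prostaglandin D2 receptor gene Ptgdr2 differed by -0.34 ± 0.14, the histamine receptor gene Hrh4 by -0.31 ± 0.15 and the receptor subunit gene Csf2rb2 by 0.45 ± 0.24. Il5, read outside the rule, was dim at 3.75 and 3.88 on the Hes1-null arrays and at 3.94 and 3.87 on the wild-type arrays. Csf2rb, the signalling chain shared by the interleukin-3, interleukin-5 and GM-CSF receptors, was bright at 11.19 and 11.31 on the Hes1-null arrays and at 10.87 and 11.18 on the wild-type arrays.

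In the histamine pathway 10 of 11 listed genes were measured, Hdc among them, and 0 were called by limma, with a median of -0.07. Hnmt, the methyltransferase that inactivates histamine, lay at 4.59 and 3.97 on the Hes1-null arrays, against 5.04 and 5.60 on the wild-type arrays. It had the same order of arrays as Prg2 (difference -1.04 ± 0.28, unadjusted p = 0.0115, adjusted p = 0.379). The breakdown enzymes Aoc1 and Aldh7a1 differed by -0.12 ± 0.14 and -0.16 ± 0.20.

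**Figure D4:**
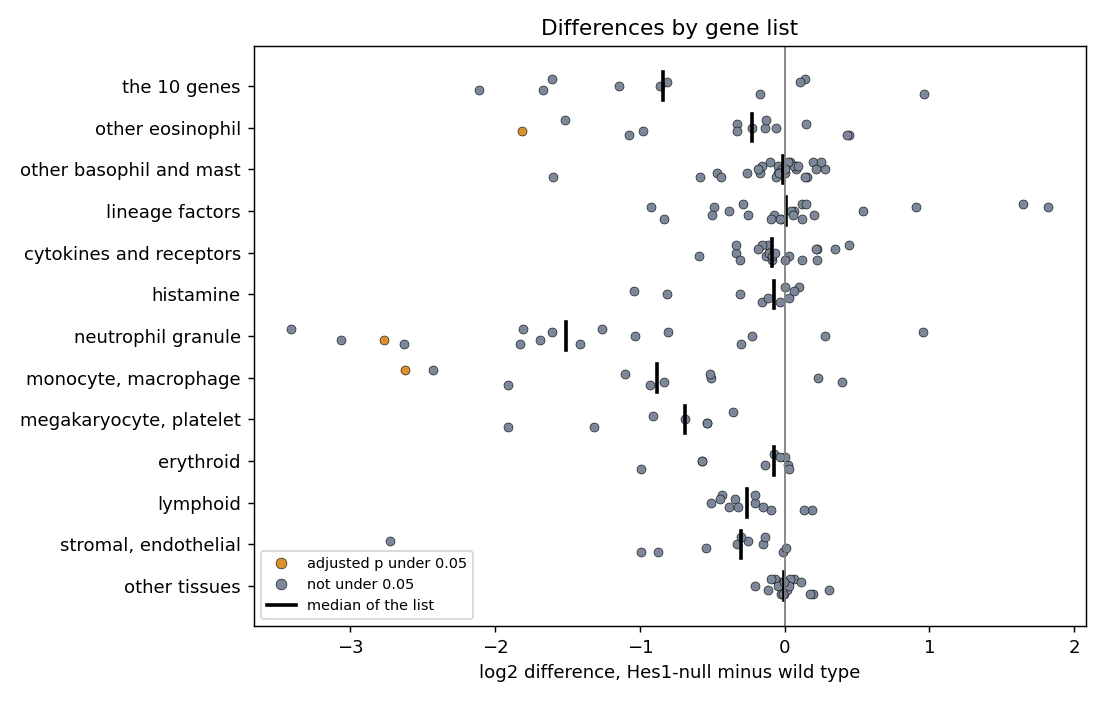
Log2 differences, Hes1-null minus wild type, of the measured genes of each list (points), with the list median (black bar) and called genes in orange. The 10 genes have a median of -0.84, the neutrophil granule genes -1.51 and the genes of other tissues -0.0024, and 3 genes on the plot are called: Rnase2a, Ltf and Vcam1.

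Many markers of neutrophils, monocytes and megakaryocytes lay lower on both Hes1-null arrays, though few passed the test, and their part in the values above was not tested. Among 16 neutrophil granule genes 12 lay lower on both Hes1-null arrays and 2, Ctsg and Mmp8, higher on both, against 20.6% and 17.4% of all genes, with a median difference of -1.51. Their summed intensity was 24560 to 24650 on the Hes1-null arrays and 41490 to 49520 on the wild-type arrays. Ltf, the lactoferrin gene, was the 1 called member (-2.77 ± 0.23, adjusted p = 0.0398 by limma), and Fcnb, the ficolin gene of immature neutrophils, differed by -3.41 ± 0.45 (adjusted p = 0.0968). Of 10 monocyte and macrophage genes 8 lay lower on both Hes1-null arrays (20.6% of all genes) and 1, Cd68, higher on both (17.4%), while Cd14 overlapped with a difference of 0.39 ± 0.45. The median was -0.88. They summed to 10660 and 12340 on the Hes1-null arrays and to 18710 and 16560 on the wild-type arrays, and Vcam1 was called (-2.62 ± 0.17, adjusted p = 0.0242).

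Among 7 megakaryocyte and platelet genes 6 lay lower on both Hes1-null arrays (20.6% of all genes) and 0 were called by limma. The number lower at an unadjusted p under 0.05 was also 6, against 4.78% of all genes. The median of the 7 genes was -0.69, with sums of 673.6 to 676.9 on the Hes1-null arrays and of 1253 to 1293 on the wild-type arrays. Among the 11 stromal and endothelial genes 7 lay lower on both Hes1-null arrays and 0 higher on both (20.6% and 17.4% of all genes). Their median was -0.30, with sums of 1041 to 1314 on the Hes1-null arrays and of 2491 to 2740 on the wild-type arrays. The gap in these sums lay mostly in Lpl, at 8.23 and 7.23 on the Hes1-null arrays, against 10.30 and 10.62 on the wild-type arrays. The 9 erythroid and 12 lymphoid genes had medians of -0.07 and -0.26, and 0 were called by limma in either. Those at an unadjusted p under 0.05 numbered 1 and 2, all lower, against 4.78% of all genes. On both Hes1-null arrays 1 erythroid gene lay lower and 0 higher, while 6 lymphoid genes lay lower and 1 higher (20.6% and 17.4% of all genes). The erythroid sums overlapped between genotypes, at 712.4 and 821.0 on the Hes1-null arrays and 967.7 and 777.0 on the wild-type arrays. The lymphoid sums also overlapped, at 1861 and 1101 on the Hes1-null arrays and 1438 and 1403 on the wild-type arrays. They were mostly Cd79b, read outside the naming rule, at 10.48 and 9.50 on the Hes1-null arrays, against 9.85 and 9.86 on the wild-type arrays.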

How the data were processed

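Total RNA of leukemic whole marrow was hybridised to mouse gene arrays, 1 per sample. The authors deposited linear-scale intensities, 1 for each probe set. The submitters' processing notes name Affymetrix Expression Console and RMA, and the sources used here give no versions. Array medians ran from 65.0 to 67.3 over 35556 probe sets. Log2 was taken with nothing added. Annotation gave 1 symbol for 21789 probe sets, and the brightest per gene on average left 19938 genes, unfiltered. The symbols of the 10 genes matched RefSeq by Entrez identifier in 10 cases. Genotypes came from the labels.

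The test was limma's (version 3.58.1, R version 4.3.3), two-sided, with lmFit, eBayes, an intensity trend and genotype as the only term. It had Benjamini-Hochberg adjustment over all genes and called genes under 0.05. Residual degrees of freedom were 2 and prior ones 3.41, and the code was tested on simulated data. The labels do not say that arrays came from separate animals, so p-values measure only the spread between these samples. The number of arrays limits the precision. The genes and lists were chosen with earlier results of these data known. Named genes were the 10, Hes1, called list genes, up to 4 per list with the smallest unadjusted p, and the 3 profiles nearest to that of the gene with the largest range. Others are marked in the text. Alternatives covered the replicate block, each array left out, scaling, filters, moderation, weights, probe set means and a floor at the highest Y-linked level.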

Additional observations from a re-analysis of the deposited data

How the results depend on the processing

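The precision is limited by 2 arrays per genotype, and the values used carry no detection calls. Leaving out an array leaves its genotype without a replicate, so spread is then measured in the other genotype only. Under 14 alternatives 0 of the 10 genes was called, with a lowest adjusted p of 0.0606 (Epx without wild-type replicate 1, limma), and 131 of 134 recomputed differences kept their sign. The exceptions were Ccr3, from -0.45 to 0.10 as arrays were left out, and Il5ra, -0.046 with dim levels raised to the floor. Hes1 ran from -0.26 to 0.15 and Aldh7a1 from -0.35 to 0.036 as arrays were left out. The cause was not tested. The median of the 10 genes ran from -1.48 to -0.35 as arrays were left out, and was -1.005 and -1.24 at the 25th percentile and median filters on level, which keep 8 and 6 of the genes.

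The 29 calls over all genes became 17 and 5 at those filters, 46 after quantile normalization, 45 with array weights, 79 with the floor and between 6 (wild-type replicate 2 dropped) and 999 (Hes1-null replicate 1 dropped) as arrays were left out. There were 15 when Hes1-null replicate 2 was dropped. The called genes among 89 related list genes, 1 in all, numbered 0 at the median filter and 2 after quantile normalization, median centring or the floor. That number moved beyond this range as arrays were left out, where 1 genotype has no replicate. The median filter keeps 38 of the 89 and removes the called gene, Rnase2a, so its call could not be made there. The design text speaks of pairs of marrows, but no label says what a replicate number shares, and same-numbered arrays deviated together at r = 0.05 across genes. With the replicate number as a block there were 89 calls over all genes, 2 among the list genes and 0 among the 10 genes. Moderation without the trend, robust moderation and probe set means left each of these counts within 1.5 times.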
